A study of Rickenella mellea with 14 samples.

Results

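Young fruiting bodies of the mushroom Rickenella mellea were compared directly with its vegetative mycelium, the stages that stand on either side of the primordium. Of the 14 libraries of the series, the 6 labelled as these stages were compared, 3 young fruiting bodies and 3 vegetative mycelia, chosen by label alone. The young fruiting bodies were collected in the field as structures 5 to 15 mm tall with a cap 1 to 2 mm wide, and were sequenced whole, without separating cap from stipe. The mycelium was grown on Fries Agar. Both groups carry the strain label SZMC22713, and the number of individuals or cultures behind the libraries is not stated. P-values therefore reflect only the spread among libraries, which may be technical. In the edgeR tests this spread was estimated over all 14 libraries, with primordia, caps and stipes included. Polyadenylated RNA was sequenced, and reads were counted for 17139 gene models.

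Growth on agar or in the field and the flow cell change together with stage. The parts of stage, of growth and of flow cell cannot be told apart in any result given here, and whether the field material and the culture are the same isolate could not be checked. In bulk tissue, fewer cells of a type and less RNA per cell also cannot be told apart.

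Vegetative mycelium is the feeding phase of a mushroom, a network of branching filaments called hyphae that secrete enzymes and take up nutrients. A fruiting body is built when hyphae aggregate, adhere and differentiate, first into a compact primordium and then into a structure with a cap and a stipe that carries the spore-forming tissue. In mushrooms this transition is known to involve changes in cell wall remodelling, in secreted surface proteins such as hydrophobins and in nutrient transport. The deposited tables give gene models by number and do not pair them with product names, so no gene family could be assigned, and the tissue labels could not be checked against marker genes. Gene models are therefore described by number, level and length.

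The young fruiting body libraries held 32.9 to 44.6 and the mycelium libraries 13.6 to 16.5 reads, counted in units of 1e6, so 3 reads, the upper limit for a count of 0, correspond to 0.0672 to 0.0913 counts per 1e6 reads (CPM) and 0.182 to 0.221 CPM. These floors cover counting error only. Across gene models, Spearman correlations were 0.934 to 0.988 within the groups and 0.840 to 0.872 between them. Replicates differed by far more than counting error, with a chi-square of at least 49.9 for each degree of freedom, so each was counted as 1 sample. Mycelium replicate 1 stood apart from the other mycelia, with 485 tested gene models at least 4-fold above both of them and 748 at least 4-fold below both, against at most 39 in either direction for mycelium replicates 2 and 3. In young fruiting body replicate 3, 440 gene models lay at least 4-fold below both other libraries of its group, against 146 in replicate 1 and 141 in replicate 2. The counts of risen and fallen genes below are also given without each of these libraries.

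A large part of the transcriptome differed between young fruiting body and mycelium. Of 15559 gene models tested, 4119 passed an edgeR quasi-likelihood test with a Benjamini-Hochberg adjusted p under 0.05 and at least a 2-fold change, which is 26.5%. Of these, 2445 rose in young fruiting bodies (15.7% of those tested) and 1674 fell (10.8%). Among those that rose, the median level was 66.1 CPM in young fruiting bodies and 17.5 CPM in mycelium, after TMM scaling (a scaling of library sizes that assumes most genes do not change). Among those that fell, it was 7.97 CPM in young fruiting bodies and 41.0 CPM in mycelium. These medians describe genes chosen by the same values and carry no test.

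The balance between rising and falling genes depended on the scaling. DESeq2 size factors gave 1841 risen and 1974 fallen gene models, and library size alone gave 1508 and 2129. With TMM and only the 6 libraries in the fit, 2041 rose and 2275 fell. Relative to the values above, these settings moved the log2 change of the median gene model by -0.20, -0.32 and -0.15. Which direction held more genes is therefore not settled by these data. Both other scalings lower the log2 change of the median gene model relative to TMM, which favours fallen over risen calls: 1508 of the 2445 risen and 1670 of the 1674 fallen gene models were called under all 3 scalings.

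**Figure D1:**
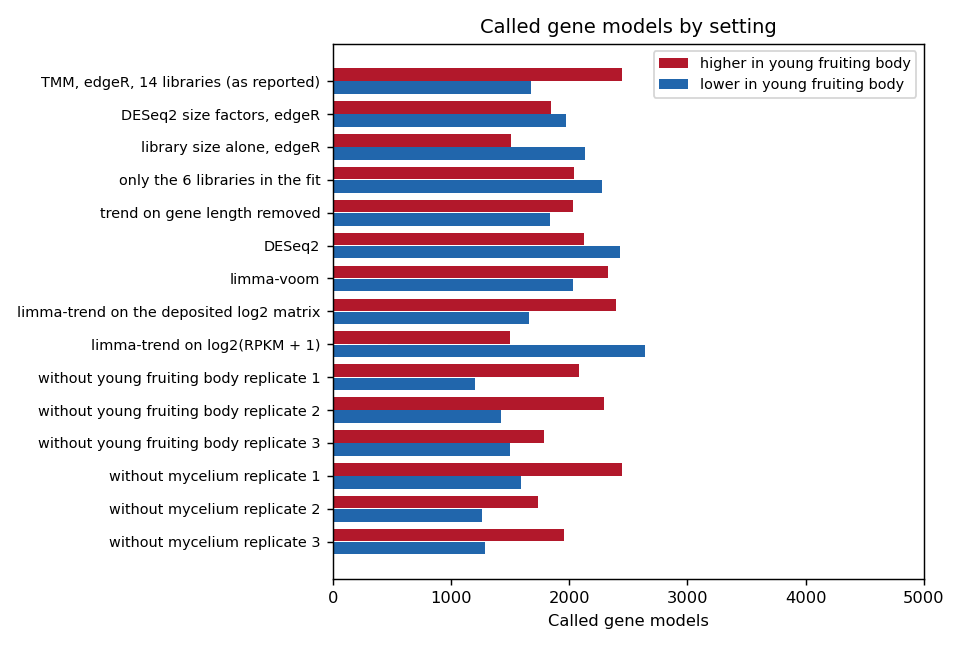
Number of gene models called higher (red) and lower (blue) in young fruiting bodies than in mycelium, for the TMM result and for 14 other settings listed down the page. Red bars are the longer ones with TMM over 14 libraries (2445 against 1674), while blue bars are the longer ones with DESeq2 size factors (1841 against 1974) and with library size alone (1508 against 2129).

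Most called genes separated the groups library by library. All 3 young fruiting bodies lay above all 3 mycelia for 2373 of the 2445 risen gene models, and all lay below for 1597 of the 1674 fallen ones. Over all tested gene models the libraries of the groups did not overlap for 51.6%, with young fruiting bodies above in 30.2% and below in 21.4%. Under a stricter reading, the lowest young fruiting body was at least 2-fold above the highest mycelium for 1199 risen gene models, and the highest young fruiting body at least 2-fold below the lowest mycelium for 1030 fallen ones. Over all 15559 tested gene models, called or not, these gaps were found for 1575 and 1329. The called gene models were chosen on the same values.

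Without mycelium replicate 1 the counts were 2447 risen and 1590 fallen, of which 2074 and 1440 were the same gene models as before. Without young fruiting body replicate 3 they were 1788 and 1496, with 1733 and 1345 shared. A core of 1263 risen and 1011 fallen gene models was called in the same direction under all 3 scalings, with only the 6 libraries in the fit, and with each of the 6 libraries left out in turn. Within this core the median log2 change was 2.17 for those that rose, at a median of 78.9 CPM in young fruiting bodies and 14.9 CPM in mycelium. For those that fell it was -2.51, at 10.4 CPM in young fruiting bodies and 66.8 CPM in mycelium.

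**Figure D2:**
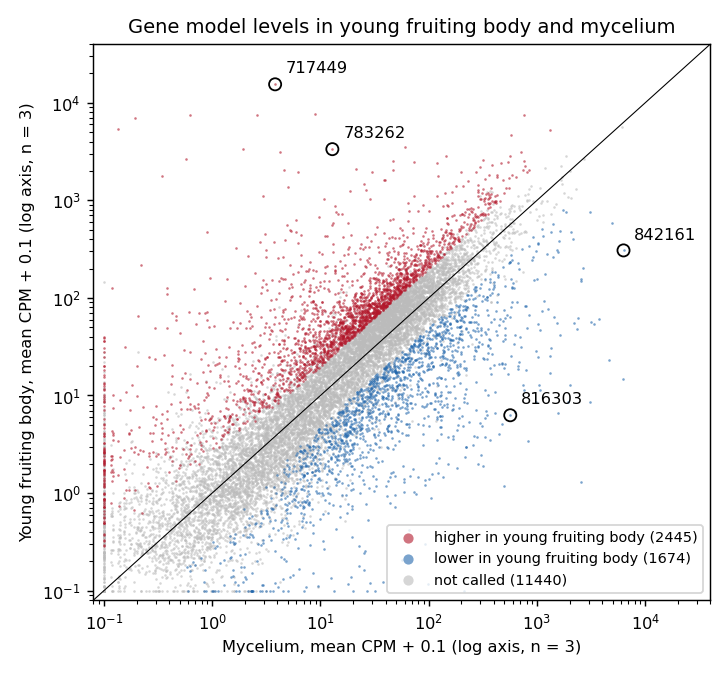
Mean level of each of 15559 tested gene models in young fruiting bodies (vertical) and mycelium (horizontal), as CPM after TMM scaling plus 0.1, on log axes, with the line of equality. The 2445 risen models are red, the 1674 fallen ones blue and the rest grey, and circles mark the 4 gene models described by number. Points along the left and lower edges have no or almost no reads in 1 of the groups.

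The called differences ran from the required 2-fold to gene models with no read found in 1 group. Of the risen gene models, 1503 (61.5%) changed between 2- and 4-fold, and the median log2 change was 1.71. Falls were larger, with a median log2 change of -2.26 and 684 gene models (40.9%) between 2- and 4-fold. Changes of at least 4-fold were found for 942 risen and 990 fallen gene models, and for 697 and 1257 with library size alone. Of the most extreme changes, fitted at 64-fold or more, 176 were risen and 101 fallen gene models. With library size alone these were 145 and 117. Their fitted folds depend on how the model treats counts near 0. Of the 176, 91 had no read in any mycelium library, and of the 101, 29 had none in any young fruiting body. The mycelium libraries held fewer reads, so a count of 0 sets a higher upper limit there. The groups did not overlap for 154 of the 176, against 2373 of all 2445 risen gene models. Among the fallen ones this held for 76 of the 101, against 1597 of all 1674.

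**Figure D3:**
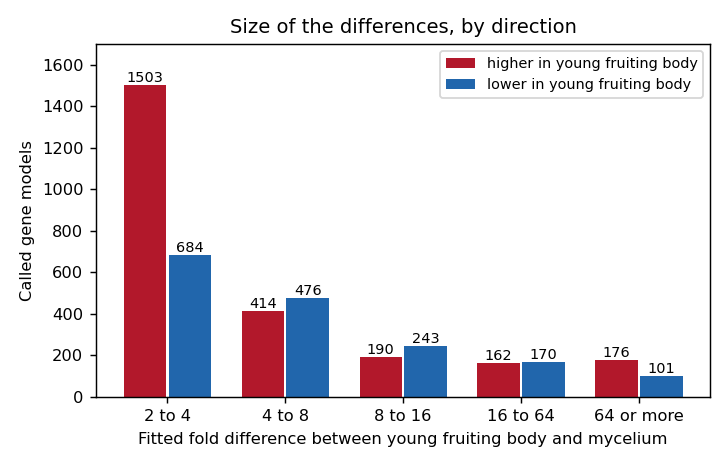
Called gene models by fitted fold difference, with those higher in young fruiting bodies in red and those lower in blue. The 2- to 4-fold class holds 1503 risen and 684 fallen models, while from 4- to 64-fold each class holds more fallen than risen ones.

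A larger share of abundant than of scarce gene models rose. When the tested gene models were ranked by mean CPM over all 14 libraries and divided into 5 equal classes, 3.79% of the lowest class rose and 31.4% of the highest class did. This ranking gives most weight to the 11 field-collected libraries, the young fruiting bodies among them, and so itself leans towards risen gene models. With classes by the mean of the young fruiting body and mycelium log2 levels, an alternative chosen after seeing the data that gives both groups equal weight, the risen shares were 6.94% and 23.8%. By the first ranking, the share that fell was 5.56% in the lowest class, 14.9% in the middle class and 10.1% in the highest. With library size alone, the risen share in these classes was 2.83% in the lowest and 20.2% in the highest. Fewer calls are possible at low counts, so the lowest class also has the least power.

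Read counts shifted by a large part of each library between these sets of genes. The risen gene models held 47.6%, 46.3% and 44.6% of the reads of the 3 young fruiting bodies, against 12.8%, 12.5% and 13.04% of those of the 3 mycelia. The fallen gene models held 3.78%, 4.30% and 4.14% of the reads in young fruiting bodies, against 32.2%, 30.6% and 31.2% in mycelium. The libraries of the groups lay far apart in both measures, but the genes were chosen from the same libraries. Within the sets, 131 risen gene models (5.36% of them) made up 50% of the risen share in young fruiting bodies. For the fallen share in mycelium, 85 fallen ones (5.08%) made up 50%. Such concentration was not particular to the called genes. Over all 17139 gene models, 297, 299 and 454 held 50% of the length-scaled reads of young fruiting bodies 1 to 3. In mycelia 1 to 3 it was 486, 605 and 517.

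The same measure was then taken in 1 left-out library at a time, which had no part in choosing the genes, while the libraries of the other group set beside it did. Gene models called risen without a given young fruiting body library held 39.0%, 40.1% and 37.2% of the reads of that left-out library (replicates 1, 2 and 3), against 9.33% to 11.3% in the mycelia. Those called risen without a given mycelium library held 34.1% to 43.7% of the reads of the young fruiting bodies, against 12.4%, 7.61% and 10.7% of the left-out mycelium. Those called fallen without a given young fruiting body library held 2.97%, 5.25% and 4.43% of its reads, against 25.9% to 32.0% in the mycelia. Those called fallen without a given mycelium library held 3.09% to 3.65% of the reads of the young fruiting bodies, against 28.4%, 26.9% and 27.6% of the left-out mycelium.

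Libraries of the other field-collected stages showed the same sets at levels nearer to the young fruiting body. The risen gene models held 31.6% to 39.2% of the reads in the 3 primordia, 40.8% to 42.6% in the 3 caps and 43.2% to 45.6% in the 2 stipes of mature fruiting bodies. The fallen gene models held 6.03% to 8.05% in primordia, 4.90% to 5.37% in caps and 5.18% to 5.98% in stipes. All of these libraries share the field origin and the flow cell with the young fruiting bodies. Primordium replicate 2 was 1 mm tall, and primordium replicates 1 and 3 were 2 to 3 mm tall. Both sizes were treated as 1 primordium group throughout.

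**Figure D4:**
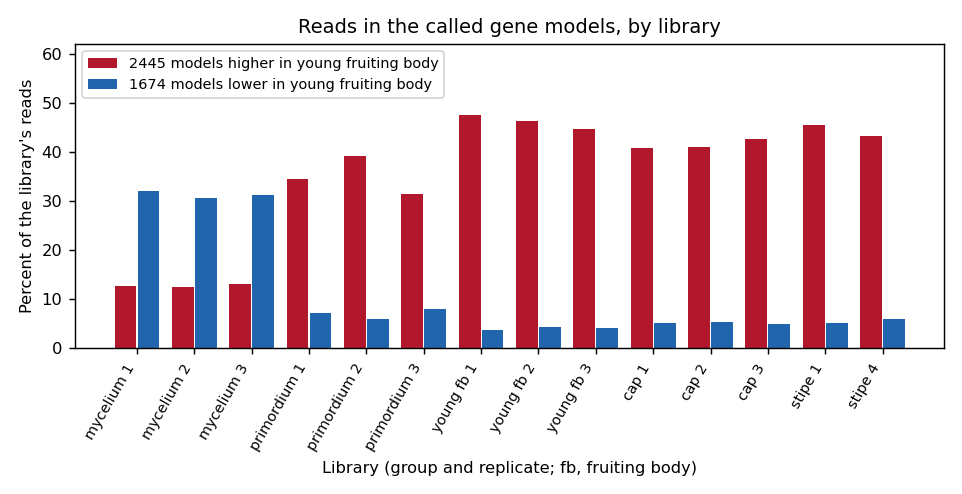
Percent of each library's reads that fell in the 2445 gene models higher (red) and the 1674 lower (blue) in young fruiting bodies, for all 14 libraries in order of stage (fb stands for fruiting body). Red bars reach at least 44.6% in young fruiting bodies and at most 13.04% in mycelium, and blue bars reach at most 4.30% in young fruiting bodies, at least 30.6% in mycelium and at most 8.05% in any field-collected library.

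In each direction the gene model with the smallest adjusted p and the most abundant called one were followed in detail. Gene model 783262 had the smallest adjusted p of those that rose. It stood at 3138, 3547 and 3345 CPM in young fruiting bodies, against 12.8, 12.02 and 13.5 CPM in mycelium. Its libraries varied little within either group, which a choice by the smallest adjusted p favours. It averaged 3344 ± 204 CPM in young fruiting bodies and 12.8 ± 0.729 CPM in mycelium (SD, n = 3 each). The log2 change was 8.03 ± 0.35 (SE; edgeR adjusted p = 2.24e-07), with a 95% interval of 7.27 to 8.79. In the primordium it reached 409, 456 and 381 CPM (replicates 1 to 3), between the groups, and in caps 1330, 1297 and 1515 CPM. The stipes stood at 3132 and 1937 CPM, the first of them level with the lowest young fruiting body (3138 CPM).

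Gene model 717449 was the most abundant of the risen ones in CPM. It stood at 15356, 20736 and 10232 CPM in young fruiting bodies, against 5.44, 2.68 and 3.02 CPM in mycelium. The log2 change was 12.02 ± 0.88 (SE; edgeR adjusted p = 3.83e-06), from 89, 49 and 58 reads in the mycelium libraries. Per length, by the authors' RPKM (reads per kilobase of length and per 1e6 reads), it ranked 4 of all gene models in young fruiting bodies, at a mean of 11878 RPKM, and 11862 in mycelium, at 3.59 RPKM. Primordia held 669, 205 and 210 CPM of it (replicates 1 to 3), caps 10522, 21353 and 20269 CPM, and stipes 10892 and 7874 CPM. It thus lay between the groups in primordia, while the ranges of caps and young fruiting bodies overlapped.

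Gene model 816303 had the smallest adjusted p of those that fell. It stood at 3.64, 9.03 and 5.85 CPM in young fruiting bodies, against 492, 622 and 586 CPM in mycelium. The log2 change was -6.52 ± 0.36 (SE; edgeR adjusted p = 6.65e-07). It was low in all field-collected libraries, with means of 2.67 ± 0.287 CPM in primordia and 5.58 ± 1.02 CPM in caps (SD, n = 3 each) and 5.88 and 4.36 CPM in the stipes. Of all 14 libraries only the 3 mycelia were above 10 CPM.

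Gene model 842161 was the most abundant of the fallen ones in mycelium, and its mycelium libraries varied most among the 4. It stood at 247, 254 and 419 CPM in young fruiting bodies, against 11280, 1941 and 5668 CPM in mycelium. The mycelia differed among themselves more than the young fruiting bodies did. That the groups do not overlap was a condition for choosing this gene model and gene model 717449. The log2 change was -4.36 ± 0.80 (SE; edgeR adjusted p = 0.00158), with a 95% interval of -6.10 to -2.62. Without mycelium replicate 1 it was -3.63 (edgeR adjusted p = 0.00441, within a range of 4.43e-11 to 0.0164 over all alternatives with edgeR, DESeq2 or limma). In primordia it stood at 3650, 3594 and 441 CPM (replicates 1 to 3), within the range of the mycelia in 2 libraries and close to the young fruiting bodies in 1. It was lowest in caps, at 28.5, 22.9 and 30.7 CPM, and stood at 640 and 545 CPM in stipes.

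**Figure D5:**
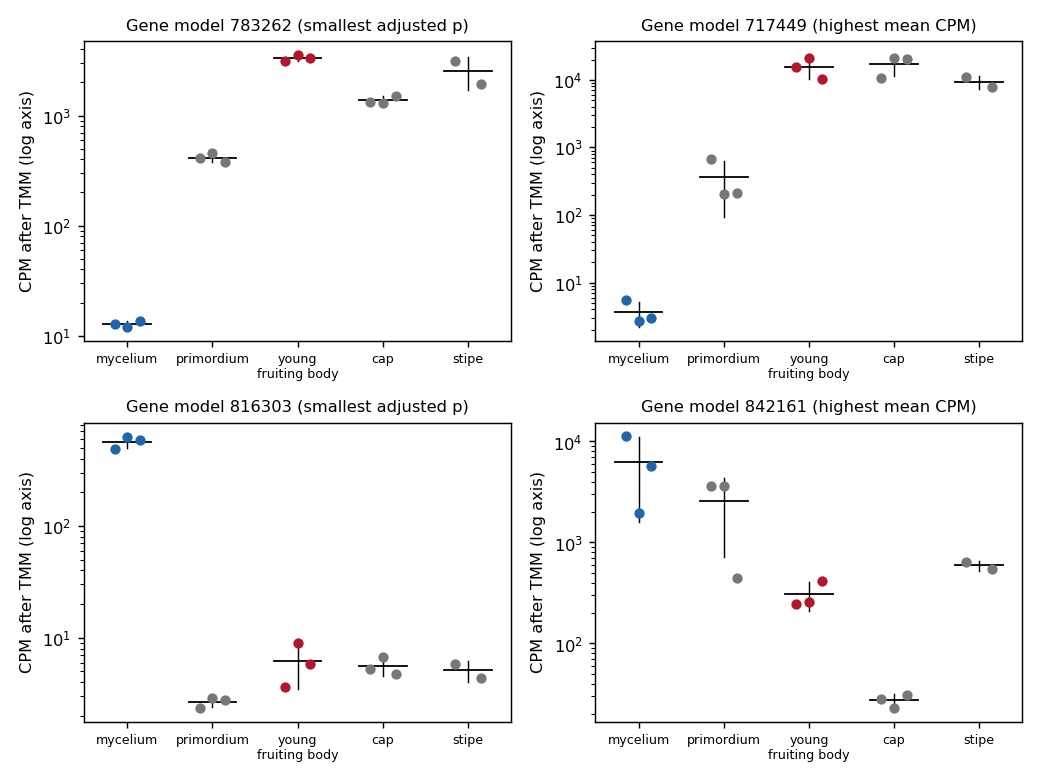
CPM after TMM scaling, on log axes, of the 4 gene models described by number, in the libraries of each stage. Points are libraries, horizontal lines are means and vertical lines are ± 1 SD, with young fruiting bodies in red, mycelium in blue and other stages in grey. The red points lie above the blue ones for gene models 783262 and 717449, and below them for 816303 and 842161, as the choice of these models required for 717449 and 842161.

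The lists of the most abundant transcripts overlapped in part. Of the 100 gene models with the highest mean RPKM in young fruiting bodies and the 100 highest in mycelium, 32 were on both lists. Of the 100 of the young fruiting body, 76 rose and 1 fell, against backgrounds of 15.7% and 10.8% of all tested gene models. Of the 100 of the mycelium, 14 rose and 54 fell. A list picked as highest in 1 of the groups compared leans towards that group, so these counts are a description. The 10 leading gene models of each group had 1 in common. Of the 10 leading in young fruiting bodies 9 rose, and of the 10 leading in mycelium 9 fell. The 100 leading in young fruiting bodies held 33.4%, 33.1% and 26.5% of the summed RPKM of those libraries, against 11.2%, 12.01% and 12.5% of that of the mycelia. The 100 leading in mycelium held 12.2%, 16.4% and 11.2% in young fruiting bodies, against 27.5%, 24.1% and 24.8% in mycelium. The 100 of the young fruiting body had a median rank of 165 in mycelium, and the 100 of the mycelium had a median rank of 284.5 in young fruiting bodies, among 17139 gene models. Ranks past 1000 in mycelium were found for 23 of the 100 of the young fruiting body, and ranks past 1000 in young fruiting bodies for 32 of the 100 of the mycelium.

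Each library was dominated to some degree by its own 100 leading gene models. These held 33.9%, 33.8% and 27.3% of summed RPKM in young fruiting bodies, against 28.2%, 24.6% and 25.6% in mycelium. The means were 31.7 ± 3.81% in young fruiting bodies and 26.1 ± 1.87% in mycelium (SD, n = 3 each), and young fruiting body replicate 3 lay below mycelium replicate 1 (exact permutation test, two-sided, p = 0.2). The smallest p that 3 against 3 libraries allow is 0.1, so neither a difference nor its absence was shown. That p of 0.1, with no overlap between the groups, was reached with the 200 leading gene models, where the difference was 7.10 percentage points. It was also reached without young fruiting body replicate 3, the library that overlapped with mycelium, where the difference for 100 was 7.73. Leaving out the overlapping library fixes that outcome in advance, so it carries no weight as a test. In all other alternatives the exact permutation p was 0.2 or 0.3.

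The number of gene models with any read was compared at 1 common depth. After random thinning of all 6 libraries to the total of the smallest, 15283, 15277 and 14969 gene models had a read in young fruiting bodies, against 14905, 15100 and 14992 in mycelium (exact permutation test, two-sided, p = 0.3). Without young fruiting body replicate 3, the library that overlapped with mycelium, the difference was 281 gene models and the groups did not overlap (exact permutation p = 0.1, the smallest possible). This outcome was fixed by the choice of the library left out and carries no weight as a test. Leaving out any other library gave an exact permutation p of 0.3 to 0.5. With at least 5 reads required, the means were 14257 ± 94.6 in young fruiting bodies and 14328 ± 208 in mycelium (SD, n = 3 each; exact permutation p = 0.7). A read was found in every one of the 6 libraries for 14126 gene models, and in none of them for 1011.

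Few gene models were silent in 1 stage and well expressed in the other. No read in any mycelium library and at least 10 CPM (by library total) in every young fruiting body was found for 8, at 10.6 to 73.6 CPM in young fruiting bodies. Of these, 6 had a read in every primordium, cap and stipe library, while 1 reached 10 CPM in every primordium library. The reverse was found for 2, named after their values were seen. Gene model 846877 had no read in young fruiting bodies, against 546, 82.9 and 104 CPM in mycelium, and it had 1 read in the caps together, 1 in the stipes and 0 in the primordia. Gene model 809873 had no read in young fruiting bodies, against 39.2, 34.7 and 23.6 CPM in mycelium, but it was present in the stipes at 37.6 and 10.8 CPM. With at least 1 CPM required, 38 gene models were silent in mycelium and 8 in young fruiting bodies, or 36 and 10 at 1 common depth. Without mycelium replicate 1 the counts at 10 CPM were 17 and 5, and without young fruiting body replicate 2 the first of them was 14.

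Many gene models stayed at similar levels. For 2123 of those tested (13.6%) the 95% interval of the log2 change, not adjusted for the number of tests, lay within -1 to 1. For the remaining 9317 that were not called, neither a 2-fold change nor its absence was shown. The number of steady gene models was 2326 with library size alone, 2436 with DESeq2 size factors, 1593 without mycelium replicate 1 and 1929 without young fruiting body replicate 3.

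The primordium is the stage that the comparison skips. Its mean CPM lay outside the range spanned by the young fruiting body and mycelium means for 75.1% of tested gene models, above both for 32.8% and below both for 42.2%. Cap means lay outside for 56.7% and stipe means for 62.7%. Among risen gene models the primordium mean was above both for 917 (37.5%), between them for 1027 (42.0%) and below both for 501 (20.5%). Among fallen ones it was above both for 174 (10.4%), between for 779 (46.5%) and below both for 721 (43.1%). TMM factors were 0.572 to 0.787 in primordia, against 0.896 to 1.07 in young fruiting bodies and 1.14 to 1.35 in mycelium, so these shares move with the scaling. With library size alone 25.3% of the risen gene models had a primordium mean above both groups and 36.1% below both, while 58.1% of the fallen ones had it below both. Over all tested gene models the same scaling gave 18.8% above both and 59.5% below both, so the share of the fallen ones was near that of all. Cap means were between both groups for 68.6% of the risen gene models, against 43.3% of all tested, and above both for 28.7%, against 30.5%. Stipe means were between for 50.4% of the risen gene models, against 37.25% of all tested, and above both for 37.8%, against 32.3%. Called gene models were chosen for at least a 2-fold change between young fruiting body and mycelium. This choice itself makes the mean of any other stage more likely to lie between these groups. The comparisons of called with all tested gene models are therefore only a description.

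Gene length had an uneven relation to the change. Tested gene models had a median length of 1196 bases, those that rose 1340 and those that fell 1230. When the tested gene models were ranked by length and divided into 3 equal bins, 19.6% of the longest bin (1552 to 12044 bases) rose and 9.74% fell. In the middle bin 14.1% rose and 13.5% fell, and in the shortest bin (150 to 913 bases) 13.4% and 9.04%. The median log2 change was 0.33 in the longest, 0.031 in the middle and 0.095 in the shortest bin. The difference between the longest and the shortest bin was 0.23, against 0.19, 0.026 and 0.42 for young fruiting body replicates 1, 2 and 3 taken singly against the mean mycelium. It was -0.014 among gene models above the median level. With the trend on gene length removed, 2028 gene models rose and 1835 fell, against 2445 and 1674 as reported.

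Shared reads touched few of the calls. Under 50% of reads in the 6 libraries were unique for 10 risen (0.409%) and 14 fallen (0.836%) gene models, against 1.61% of all those tested. The levels of such gene models are uncertain, since reads may be split between near-identical copies. All 4 gene models followed in detail had at least 99% unique reads. The library kit named in the labels does not mark strand, so overlapping antisense transcripts cannot be separated.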

How the data were processed

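The authors deposited 1 table per library with total and unique read counts, which are whole numbers without normalization, per the file headers, for gene models of the set Ricmel1. The deposited RPKM values equal total reads divided by gene length and library total in 100% of cells. The deposited log2 matrix covers 15477 gene models, those with at least 5 reads in at least 4 libraries, and equals log2 RPKM after TMM scaling with 0.5 added to each count (100% of values within 1e-06). It was used only in an alternative. Tools listed in the submitters' processing notes are limma 3.18.13, edgeR 3.4.2 and R 3.0.2. The read mapper and genome build were not given in the sources used here.

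Total counts of all 14 libraries entered 1 fit of edgeR 4.0.16 (R 4.3.3), with TMM scaling, the filterByExpr function, 9 residual degrees of freedom and the contrast of young fruiting body minus mycelium. Levels are TMM-scaled CPM unless stated. Each standard error was taken as the size of the log2 change over the root of its F statistic. Called means a Benjamini-Hochberg adjusted p under 0.05 and at least 2-fold. Named gene models are, in each direction, the called one with the smallest adjusted p and the called one with the highest mean in its higher group, without overlap and with at least 90% unique reads. Alternatives changed the scaling, filter, reads, libraries or fold, removed a length trend, added the replicate number as a block, or used DESeq2 1.42.0 or limma 3.58.1. The stages, lists and tests were chosen with earlier results of these data known. Sequences and product names are not used here.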

Additional observations from a re-analysis of the deposited data

Results flagged for a closer look

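Signal was present in gene models that the filter on low counts left out of the test. Young fruiting body replicate 1 had 2 such gene models with 10 CPM or more and less than 1 CPM in each of the other 5 young fruiting body and mycelium libraries. These were gene model 835552, with 1279 reads (28.7 CPM) against 1 read in the other 5 libraries together, and gene model 846639, with 654 reads (14.7 CPM) against 3. In mycelium replicate 1 the same held for 1 gene model, 806134, with 206 reads (14.4 CPM) against 7. All reads of these 3 gene models were unique. Groups of 3 libraries are too small for a check on single outlying values.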

How the results depend on the processing

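Of 63 alternative counts of called, risen and fallen genes, 55 stayed within 1.5 times the value reported, and all 76 alternative values of the 4 named gene models kept direction and call. Risen genes numbered 1508 with library size alone, 1500 with limma-trend on log2(RPKM + 1), where 2643 fell, and 1531 on log2(RPKM + 0.1); these settings use no TMM scaling. Requiring 4-fold left 1932 genes, 942 risen and 990 fallen, fewer by construction. The replicate number as a block gave 3461 called genes (2156 risen, 1305 fallen) with 14 libraries, and 3236 (1597 risen, 1639 fallen) with 6. Same-numbered libraries did not deviate together (r = -0.0381 to -0.0298) and none correlated best with its own number. Correlations this weak cannot show whether the numbers mark libraries collected or prepared together. The difference in detected gene models was 177 and became -71 with at least 5 reads required, and the length difference was -0.014 among genes above the median level; the cause was not tested.

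Leaving out 1 library at a time gave 2995 to 4037 called, 1738 to 2447 risen and 1203 to 1590 fallen. The share in 100 leading gene models differed by 4.40 to 7.73 percentage points, detected gene models by 124 to 281 and the length difference was 0.155 to 0.358. Gene models silent in mycelium ran from 9 to 17 and those silent in young fruiting bodies from 2 to 5. The lower depth of the mycelium libraries limits calls at low counts.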

Other observations

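Some gene models were silent in 1 library and expressed in another of the same stage. No read in 1 library and at least 20 CPM (by library total) in another of the same stage was found for 49 gene models in young fruiting bodies and for 66 in mycelium. Of these, 48 and 66 were tested, and 4 (8.33%) and 10 (15.2%) were called between the stages, against 26.5% of all tested gene models. They were picked for a wide spread within a stage, which itself makes a call less likely, so these shares are only a description. A range of at least 64-fold between libraries of 1 stage was found for 258 tested gene models in young fruiting bodies and 263 in mycelium. A range of at least 4-fold was found for 12.1% in young fruiting bodies and 12.6% in mycelium, and the median SD of log2 CPM was 0.39 in young fruiting bodies and 0.34 in mycelium.

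By mean Spearman correlation across gene models, the young fruiting body was nearer to caps (0.936) and stipes (0.935) than to primordia (0.873) or mycelium (0.857). Mycelium correlated at 0.811 with primordia, 0.843 with caps and 0.847 with stipes. These values have no test, and the mycelium differs from all other stages in growth condition and flow cell.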
